A study of Homo sapiens with 6 samples.

Results

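Mature miRNAs whose hairpins lie inside the HOX gene clusters were followed in exosomes of HCT116, a colorectal carcinoma cell line of human origin. The 5 members, hsa-miR-10a-5p, hsa-miR-10b-5p, hsa-miR-196a-5p, hsa-miR-196b-5p and hsa-miR-7704, were taken by name from 2588 entries. Of these, 4 had reads and 3 had enough reads to be tested. Cells received a control siRNA (siCTL, 3 libraries) or an siRNA against PRDX3 (siPRDX3, 3 libraries) by microporation. The time after transfection was 40 h. PRDX3 encodes a mitochondrial peroxiredoxin. Both groups then spent 24 h in medium whose serum had been freed of nanoparticles, exosomes were collected with a kit, and small-RNA libraries were sequenced. The design text also holds a sentence on an siRNA against OASL in endothelial cells, which contradicts the titles, and the titles were followed. Whether libraries of a group are separate cultures is not in the labels, so p-values cover library-to-library spread alone, and that spread may be technical. A miRNA assay does not measure PRDX3 mRNA, so the knockdown was not checked here, and all samples are of 1 cell line.

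HOX genes encode homeodomain transcription factors that set positional identity along the body axis, and mammals carry them in the HOXA, HOXB, HOXC and HOXD clusters. The miRNA genes of the clusters lie among the HOX genes, several of them inside HOX transcripts. The miR-10 and miR-196 families repress HOX transcripts, miR-196 with HOXB8 as a classic target and miR-10b with HOXD10. miR-10b is also known for its link to invasion in carcinomas. A miRNA finds its targets mainly through its seed, bases 2 to 8 from the 5′ end.

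The mature sequences below are given to compare seeds, which are in capitals. They come from RefSeq on GRCh38.p14, where 4 of the 5 members matched by name, all except miR-10b-5p.
miR-10a-5p: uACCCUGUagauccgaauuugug
miR-100-5p: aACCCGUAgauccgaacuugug
miR-196a-5p: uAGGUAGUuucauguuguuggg
miR-196b-5p: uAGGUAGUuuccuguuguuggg
let-7a-5p: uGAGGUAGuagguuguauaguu
miR-7704: cGGGGUCGgcggcgacgug

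miR-196a-5p and miR-196b-5p share the seed and differ by 1 substitution, A12C, counted from the 5′ end of miR-196a-5p. The miR-196 seed AGGUAGU also occurs in let-7a-5p, at bases 3 to 9, so the seeds overlap by an offset of 1 base. miR-10a-5p and miR-100-5p, a relative outside the HOX clusters, have different seeds but share a run of 11 bases, GUAGAUCCGAA, at bases 7 to 17 of miR-10a-5p. miR-7704 stands apart: it has 19 bases, of which 84.2% are G or C, against a median of 52.2% over the 2281 entries matched in RefSeq. Of the 69 tested entries with a sequence there, 3 were that rich in G and C, namely miR-7704, miR-3196 and miR-4488.

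By position, the members cover all HOX clusters. On GRCh38 the hairpin of miR-10a lies in HOXB on chromosome 17 (48579838 to 48579947, minus strand), in introns of HOXB3 transcripts and within a UTR exon of 1 HOXB4 transcript in GENCODE v29. The hairpin of miR-10b lies in HOXD on chromosome 2 (176150303 to 176150412, plus strand), in an intron of a HOXD3 transcript. miR-196a-5p comes from a hairpin in a HOXB7 intron (chromosome 17, 48632490 to 48632559, minus strand) and from another in a HOXC6 intron (chromosome 12, 53991738 to 53991847, plus strand), so its reads cannot be assigned to 1 cluster. The hairpin of miR-196b lies in HOXA within HOXA9 (chromosome 7, 27169480 to 27169563, minus strand), where 1 of 3 overlapping transcripts, a processed one, has it in an exon. The hairpin of miR-7704 is also in HOXD, 38431 bases after that of miR-10b (chromosome 2, 176188843 to 176188901, plus strand). It lies in a coding exon of the 1 overlapping HOXD1 transcript, and an exon of the antisense gene HAGLR covers it on the other strand. The mature sequence, in capitals, is the first 19 of its 59 bases.
MIR7704 hairpin: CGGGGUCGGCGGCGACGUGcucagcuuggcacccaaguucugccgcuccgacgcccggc

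An exact copy of miR-7704 occurred in the HOXD1 transcript and in no other GENCODE v29 transcript except its own hairpin. miR-10a-5p likewise occurred in 1 HOXB4 transcript, a sense-intronic transcript and its hairpin. Reads of fragments of such transcripts and of the mature miRNA cannot be told apart in the deposited values.

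The libraries differed in depth and content before any HOX miRNA was considered. They held 40146 to 124735 miRNA reads in siCTL and 70678 to 230946 in siPRDX3, and a single entry, miR-4451, took 11.8% to 76.9% of them. Among the 80 tested miRNAs siCTL 1 and siCTL 2 stood apart, with 30 and 23 at 0 reads, against 0 in siCTL 3 and 1, 8 and 1 in siPRDX3. Testing required a minimum level in at least 3 libraries, so these counts depend on which miRNAs passed. Over all entries siCTL 2 was nearer to the others: 137, 190 and 356 had a read across siCTL, against 334, 215 and 272 across siPRDX3. Epithelial and intestinal miRNAs, the labelled cell type, were sparse: 7 of 8 had a read in siCTL and 6 in siPRDX3, with summed shares of 0.00494% to 1.16% and 0.0114% to 0.304%, and miR-429 was at 0 in all libraries. Erythrocyte miRNAs (4 of 5 with reads in each group, miR-144-3p at 0) took 4.15% to 5.58% in siCTL and 1.09% to 3.54% in siPRDX3. Hepatocyte miRNAs took 0.0593% to 5.35% (2 of 2 with reads) and 2.44% to 9.63% (1 of 2). Each of the leukocyte and platelet, endothelial, fibroblast, striated muscle and neuronal lists stayed at or below 0.406% in every library, with miR-223-3p, miR-126-5p, miR-145-5p, miR-133a-3p and miR-124-3p among their entries at 0. Other entries of each list had reads. Summed over siCTL against siPRDX3 these were 22 against 298 for leukocyte and platelet, 6 against 159 for endothelial and 2 against 15 for fibroblast. Striated muscle had 63 against 3, and neuronal 25 against 145. The part of all these marker miRNAs in the results below was not tested.

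The 5 members together took 5.88%, 0.546% and 12.9% of the reads of siCTL libraries 1, 2 and 3, against 7.67%, 5.03% and 6.50% for siPRDX3 libraries 1, 2 and 3. The means were 6.45% ± 6.20 and 6.40% ± 1.33 (SD, n = 3 each), with the siCTL libraries spread over the wider range. Without siCTL 3 the siCTL mean was 3.21%, and without siCTL 2 it was 9.39%. Its nearness to the siPRDX3 mean thus rested on both of these libraries. Nearly all of these reads came from HOXB and HOXD. The mean share of the HOXD entries was 4.07% ± 4.60 in the siCTL group and 3.73% ± 0.961 in the siPRDX3 group. Without siCTL 3 the HOXD mean of siCTL was 1.46%, and without siCTL 2 it was 5.83%. For HOXB, without miR-196a-5p, the means were 2.38% ± 2.06 and 2.62% ± 1.38, and that of siCTL was 3.57% without siCTL 2. The HOXA entries had 0 reads in all 6 libraries. The other 7 mature entries of HOX-cluster hairpins, mostly opposite arms, had reads for only 1, miR-615-3p. In particular miR-10a-3p and miR-10b-3p were at 0, while the 5p arms had 18768 and 2676 reads over the 6 libraries, so only the 5p arm of each miR-10 hairpin was seen.

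**Figure D1:**
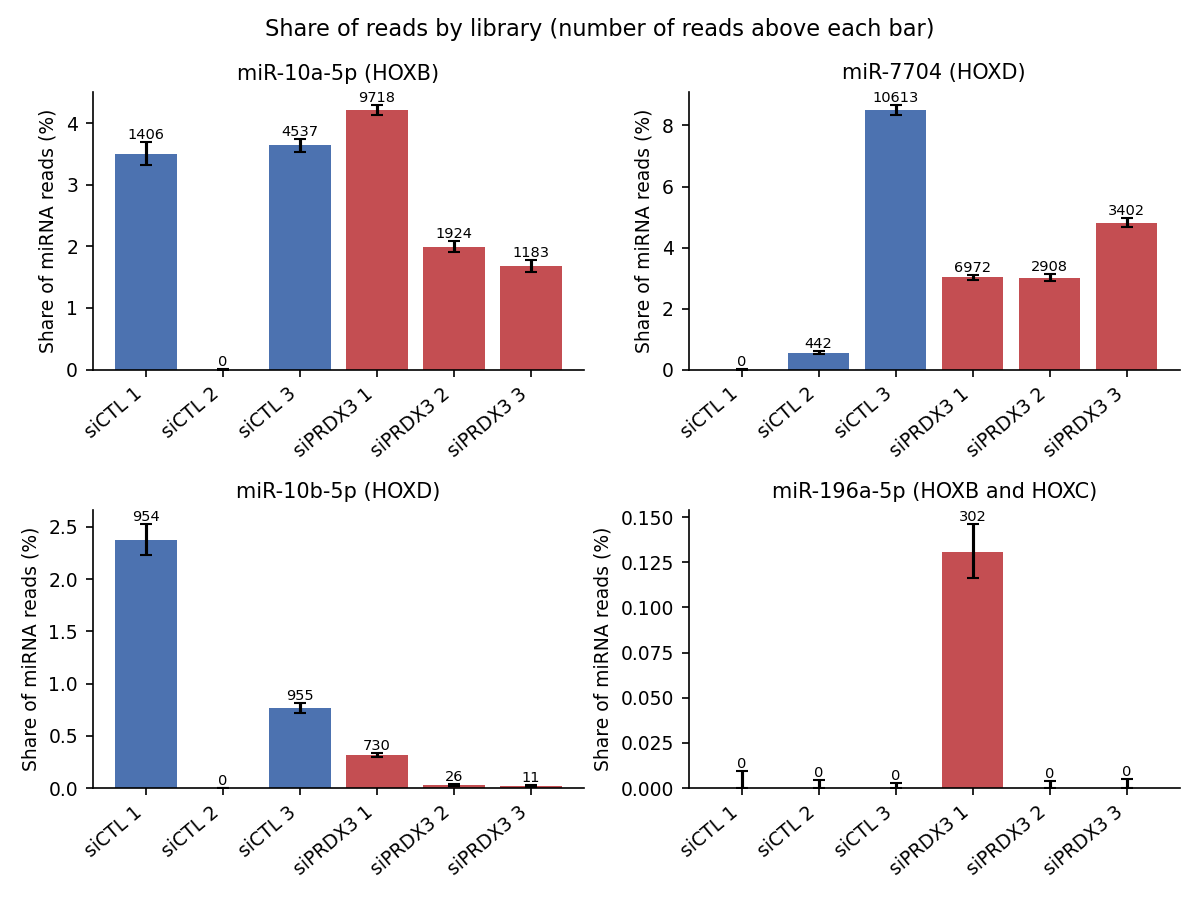
Share of miRNA reads (y axis, %) taken by 4 HOX-cluster miRNAs in each library (x axis), with exact 95% Clopper-Pearson intervals as bars and the number of reads printed above. miR-10a-5p and miR-10b-5p are at 0 in siCTL 2, miR-7704 is at 0 in siCTL 1, and miR-196a-5p has reads in siPRDX3 1 alone.

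miR-10a-5p, the HOXB member of the miR-10 family, was abundant wherever it was present. The siCTL libraries 1, 2 and 3 gave 1406, 0 and 4537 reads of it, and the siPRDX3 libraries 1, 2 and 3 gave 9718, 1924 and 1183. As shares these were 3.50%, 0% and 3.64% for siCTL, against 4.21%, 1.99% and 1.67% for siPRDX3, so the groups overlapped and the lowest value was that of siCTL 2. The 0 in siCTL 2 allows a share of up to 0.00371%, which is below the share in any other library. Where present, miR-10a-5p ranked 6th to 10th among the entries of its library. Its deposited level, log2 of scaled CPM plus 1, was 15.10, 0 and 15.14 for siCTL, against 14.82, 13.74 and 12.96 for siPRDX3. On that scale siCTL 1 and siCTL 3 both lay above all siPRDX3 libraries and siCTL 2 below all of them. The log2 fold change, siPRDX3 minus siCTL, was 3.75 with SE 3.92 and a 95% interval of −5.46 to 12.97 (limma, adjusted p = 0.590). The positive sign rested on siCTL 2: without that library the log2 fold change was −1.29 on the deposited scale (limma adjusted p = 0.723). With siCTL 3 as the only siCTL library it was −1.31, against a median of −1.15 over all tested miRNAs. On that scale the siPRDX3 libraries have lower totals than the siCTL libraries, which lowers their levels compared with shares. As shares, the siCTL mean without siCTL 2 was 3.57%, against 2.62% in siPRDX3.

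miR-10b-5p, its HOXD relative, followed the same presence pattern at lower levels. The siCTL libraries gave 954, 0 and 955 reads of it and the siPRDX3 libraries 730, 26 and 11. The near-equal 954 and 955 reads are not equal levels, since siCTL 3 was the deeper library: the shares were 2.38%, 0% and 0.766% for siCTL, against 0.316%, 0.0269% and 0.0156% for siPRDX3. Thus siCTL 1 and siCTL 3 held more than any siPRDX3 library, and siCTL 2 held none. The deposited log2 levels were 14.54, 0 and 12.90 for siCTL, against 11.09, 7.53 and 6.23 for siPRDX3. Over all 6 libraries the log2 fold change was −0.86 with SE 3.87 and a 95% interval of −9.96 to 8.23 (limma, adjusted p = 0.875). Without siCTL 2 it was −5.44 with SE 2.09 and an interval of −10.54 to −0.34, with an unadjusted p of 0.0402 and an adjusted p of 0.644 by limma. The sign was positive, at 1.83 and 1.01, without siCTL 1 and without siCTL 3.

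miR-7704, the short GC-rich HOXD entry, took 52.4% of the pooled reads of all HOX-cluster entries, the largest part of any member. That order rested on siCTL 3, since without it the pooled reads were 13724 for miR-7704 and 14231 for miR-10a-5p, and miR-10a-5p had more reads in siCTL 1 and siPRDX3 1. The siCTL libraries gave 0, 442 and 10613 reads of it and the siPRDX3 libraries 6972, 2908 and 3402. The shares were 0%, 0.546% and 8.51% for siCTL, against 3.02%, 3.01% and 4.81% for siPRDX3, so siCTL held both the lowest and the highest values and enclosed the siPRDX3 range. The 0 in siCTL 1 allows a share of up to 0.00747%. In siPRDX3 the deposited log2 levels lay close together, at 14.34, 14.33 and 14.48, against 0, 13.11 and 16.37 in siCTL. Their SD of 0.08 in siPRDX3 compares with a median SD of 1.43 over the tested miRNAs there, and the SD of 8.66 in siCTL with a median of 3.58. That closeness belongs to the deposited scale: the shares in siPRDX3 ran from 3.01% to 4.81%, and with miR-4451 left out of the total they were 3.42%, 5.75% and 8.02%. The log2 fold change was 4.56 with SE 3.86 and a 95% interval of −4.53 to 13.64 (limma, adjusted p = 0.590). Without siCTL 1 it was −0.35 on the deposited scale, where siPRDX3 libraries have lower totals than siCTL libraries. That fit was not run on other scalings. As shares, the siPRDX3 values lay between the remaining siCTL values of 0.546% and 8.51%. Without siCTL 1 and siCTL 2 together, where 1 siCTL library remains, the log2 fold change was −1.99 on the deposited scale. The median over all tested miRNAs was then −1.15. Of the other entries as rich in G and C, miR-3196 gave 0, 0 and 1712 reads across the siCTL libraries, against 722, 31 and 278 across siPRDX3. For miR-4488 these were 5, 0 and 3, against 31, 0 and 104.

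**Figure D2:**
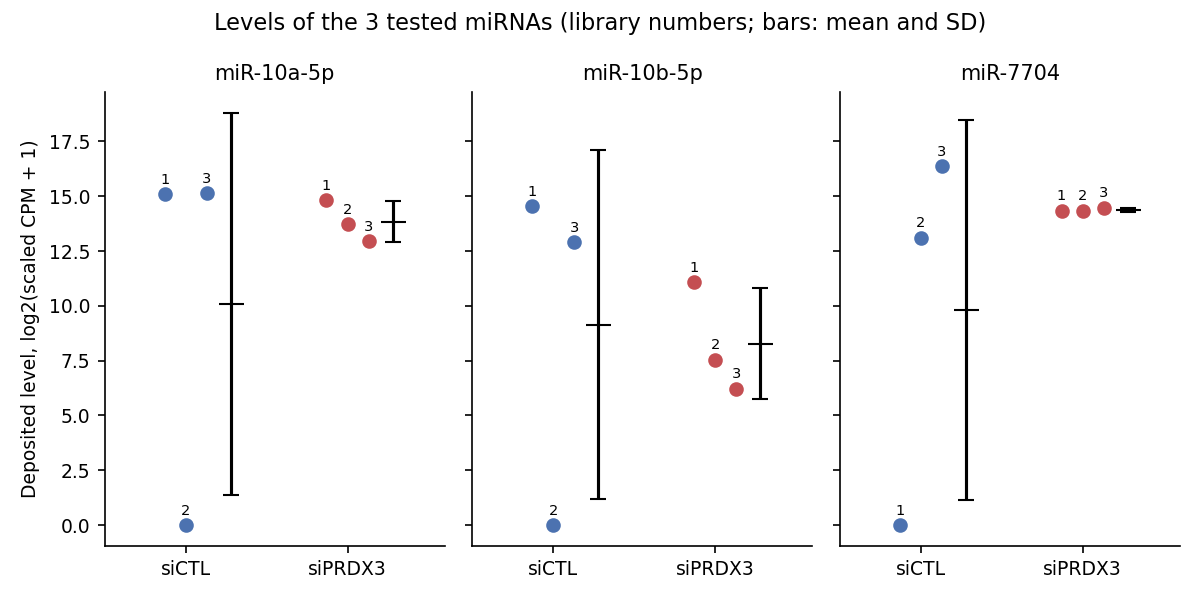
Deposited level (y axis, log2 of scaled CPM + 1) of the 3 tested HOX-cluster miRNAs in each library, with library numbers beside the points and black bars for mean and SD of each group (n = 3). A single siCTL library at 0 widens each siCTL bar, siCTL 2 for both miR-10 entries and siCTL 1 for miR-7704.

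None of the 3 tested members passed an adjusted p of 0.05 by limma, and none reached an unadjusted p of 0.05 in the analysis of 80. With no filter on low values the unadjusted limma p was 0.0292 for miR-10a-5p and 0.00684 for miR-7704, with an adjusted p of 0.562 for both. The log2 fold changes of these miRNAs stayed at 3.75 and 4.56 there. Only the SE changed, to 1.72 and 1.68 from 3.92 and 3.86 with the filter, so the smaller p-values do not reflect other levels. Over all 80 tested miRNAs the limma calls were 0, or 0%, and 6 had an unadjusted p under 0.05, which is 7.5%. Deposited levels of the groups did not overlap for 0 of the 3 members, against 13 of 80 miRNAs, or 16.2%. Log2 fold changes lay above 0 for 2 of the 3 members, with a median of 3.75, and for 51 of the 80 miRNAs, with a median of 1.72. The standard errors of the members were among the larger ones, with ranks 5 for miR-10a-5p, 7 for miR-10b-5p and 9 for miR-7704 from the largest of 80. Levels here are relative to the other reads of a library. Less of a miRNA in the vesicles thus cannot be told apart from more reads of other entries, and the number of vesicles does not show.

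**Figure D3:**
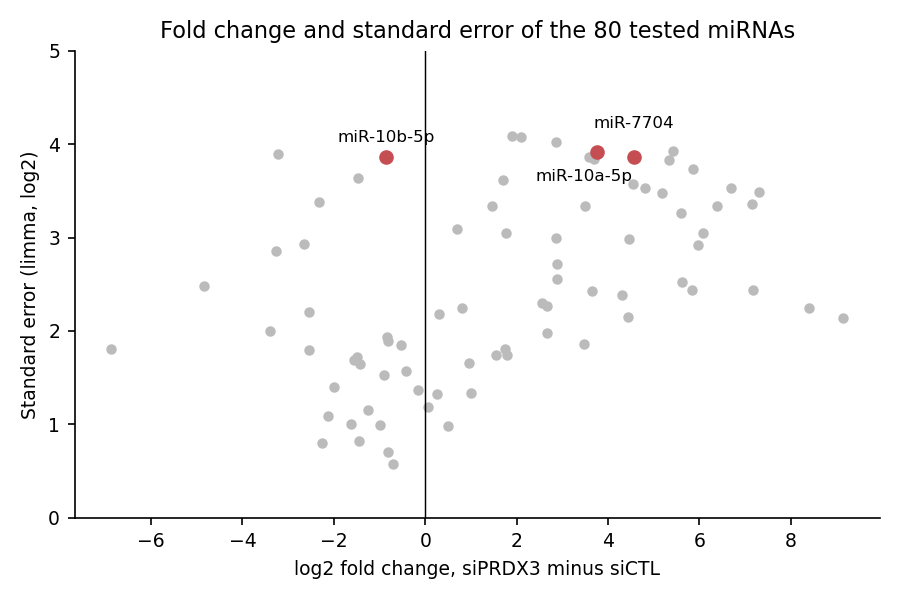
Fold change (x axis, log2, siPRDX3 minus siCTL) against its standard error (y axis, log2) for the 80 tested miRNAs, with the HOX-cluster members in red. The 3 members have standard errors of 3.86 to 3.92, near the top of the range.

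miR-10a-5p and miR-10b-5p were then compared within each library, where the scaling between libraries does not enter. miR-10b-5p made up 40.4% of the reads of the pair in siCTL 1 (95% Clopper-Pearson interval 38.4 to 42.4) and 17.4% in siCTL 3 (16.4 to 18.4). It made up 6.99% in siPRDX3 1 (6.51 to 7.49), 1.33% in siPRDX3 2 (0.873 to 1.95) and 0.921% in siPRDX3 3 (0.461 to 1.64). Reads of miR-10a-5p thus outnumbered those of miR-10b-5p 1.47-fold and 4.75-fold in siCTL 1 and siCTL 3, and 13.3-fold, 74.0-fold and 107.5-fold in siPRDX3 1, 2 and 3. In the 5 libraries with reads, both siCTL values of the miR-10b-5p share lay above all siPRDX3 values, while siCTL 2 had 0 reads of both miRNAs and gives no ratio of its own. With 0.5 read added to each count the log2 ratio averaged 0.94 ± 1.17 for siCTL, against 5.53 ± 1.58 for siPRDX3 (SD, 3 libraries each). The difference of 4.60 had an exact two-sided permutation p of 0.1, the smallest that 3 against 3 can give. In that comparison siCTL 2 enters with a log2 ratio of 0 that comes from the added reads alone. Without siCTL 2 the difference was 4.13 (exact permutation p = 0.2, the smallest possible for 2 against 3). Such separation was not rare, since the groups did not overlap for 14.5% of the 3160 ratios between tested miRNAs. miR-10a and miR-10b are close relatives, and how reads that fit both entries were divided is not stated by any source used, so both are uncertain in that respect.

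**Figure D4:**
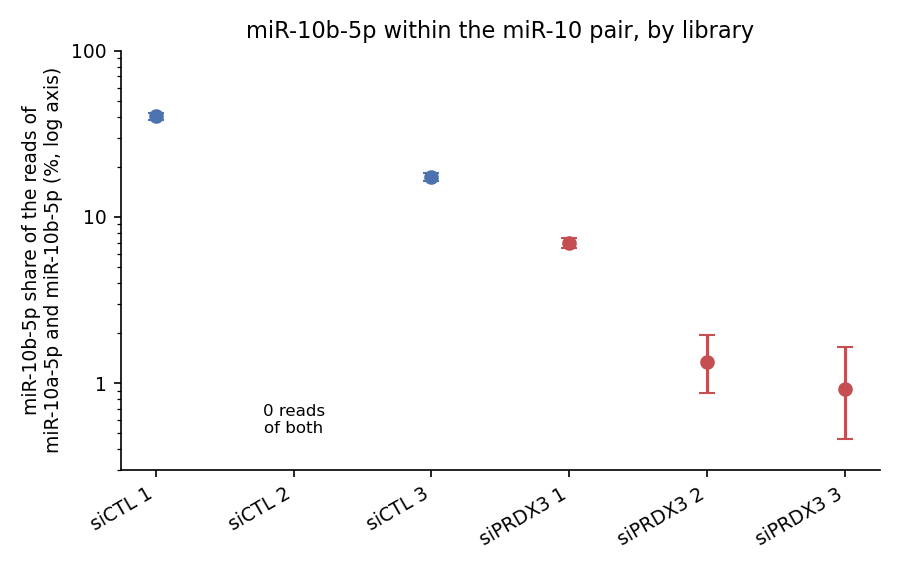
Share of miR-10b-5p among the reads of miR-10a-5p and miR-10b-5p (y axis, %, log axis) in each library, with exact 95% Clopper-Pearson intervals. siCTL 1 and siCTL 3 lie at 40.4% and 17.4%, the siPRDX3 libraries lie between 0.921% and 6.99%, and siCTL 2 has no reads of either.

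The HOXD neighbours did not move together. siCTL 1 held miR-10b-5p without miR-7704, and siCTL 2 held miR-7704 without miR-10b-5p. Where both were present, reads of miR-7704 exceeded those of miR-10b-5p 11.1-fold in siCTL 3 and 9.55-fold, 111.8-fold and 309.3-fold in siPRDX3 1, 2 and 3. In those same libraries the ratio of miR-7704 to miR-10a-5p moved less, with 2.34 in siCTL 3 and 0.717, 1.51 and 2.88 in siPRDX3. Elsewhere this pair was split too: siCTL 1 had 0 reads of miR-7704 and 1406 of miR-10a-5p, and siCTL 2 had 442 and 0. All these splits fell in siCTL 1 and siCTL 2, where 30 and 23 of the 80 tested miRNAs were at 0 reads. How often other tested miRNAs were split in this way was not counted.

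Likeness of pattern was measured as the root mean square difference of centred log2 levels over the 6 libraries. By this measure the tested miRNA closest to miR-10a-5p was miR-10b-5p and the reverse, at 2.58, against a median of 5.58 between miR-10a-5p and the tested miRNAs. The next for miR-10a-5p were miR-3158-3p (3.02) and let-7g-5p (3.03), and for miR-10b-5p miR-122-5p (3.35) and let-7g-5p (3.40). The closest to miR-7704 were miR-320b, miR-320c and miR-320a, at 1.76, 2.17 and 2.66, each with at most 1 read in siCTL 1. In contrast, miR-7704 was 78th of 79 in likeness to miR-10a-5p and last for miR-10b-5p, at 8.21 and 8.67. All these distances are set largely by which libraries have 0 reads.

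The miR-196 members were nearly missing. miR-196a-5p was at 0 reads in every siCTL library and had 302, 0 and 0 reads across siPRDX3 1, 2 and 3, so it was present in 1 library of 6. There it took 0.131% of reads (95% Clopper-Pearson interval 0.116 to 0.146) and ranked 67th. Counts of 0 allow shares of up to 0.00747%, 0.00371% and 0.00241% in siCTL and 0.00310% and 0.00424% in siPRDX3 2 and 3, all below that share. It was too sparse to be tested, and siPRDX3 1 was the deepest library. miR-196b-5p, the HOXA member, had 0 of 644115 reads over the 6 libraries. The HOXC entry miR-615-3p, whose hairpin lies in introns of HOXC transcripts including HOXC5 (chromosome 12, 54033950 to 54034045, plus strand), gave 0, 0 and 8 reads across the siCTL libraries, against 234, 0 and 127 across siPRDX3. Its reads came from siCTL 3, siPRDX3 1 and siPRDX3 3, and it too was not tested.

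Presence by library was also computed at matched depth. Across siCTL libraries 1, 2 and 3 there were 2, 1 and 3 members with a read, against 4, 3 and 3 across siPRDX3 libraries 1, 2 and 3. With every library thinned to the 40146 reads of the smallest, the expected numbers rounded to the same values. They did so too when miR-4451 was left out and the remaining reads were thinned to 18713, the smallest such number. The smallest count of a present member was 11 reads (miR-10b-5p in siPRDX3 3), so thinning to these depths could hardly have lost one. Over all 2588 entries, 137, 190 and 356 had a read across siCTL libraries 1, 2 and 3. Across siPRDX3 libraries 1, 2 and 3 these were 334, 215 and 272, without thinning.

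Relatives outside the HOX clusters were set beside them. Of 6 entries, 5 were tested, and 0 passed by limma at an adjusted or an unadjusted p of 0.05, with 3 log2 fold changes above 0 and 2 below. miR-100-5p, from the miR-99 and miR-100 relatives of miR-10, gave 0, 1 and 1574 reads across the siCTL libraries, against 7228, 321 and 2284 across siPRDX3, and thus lacked the reads in siCTL 1 that miR-10a-5p had there. For miR-99b-5p the reads were 0, 1 and 475, against 347, 1420 and 347, and for miR-99a-5p 1, 4 and 7, against 49, 57 and 12. let-7a-5p and let-7b-5p, whose seed overlaps that of miR-196 by offset, were present in every library, while miR-98-5p had at most 11 reads in any. Their log2 fold changes were −0.82 with SE 0.70 and −0.71 with SE 0.57 (limma, adjusted p = 0.590 for both). The direction depended on the scaling. As shares of all reads they averaged 4.73% ± 2.13 and 8.10% ± 3.28 in siCTL and were higher in siPRDX3, at 5.20% ± 2.79 and 9.38% ± 3.60 (SD, 3 libraries each). With miR-4451 left out they went from 9.57% to 7.43% and from 16.7% to 13.8%. In siCTL 2, where the miR-10 entries were at 0, let-7a-5p had 1836 reads and let-7b-5p 3627.

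**Figure D5:**
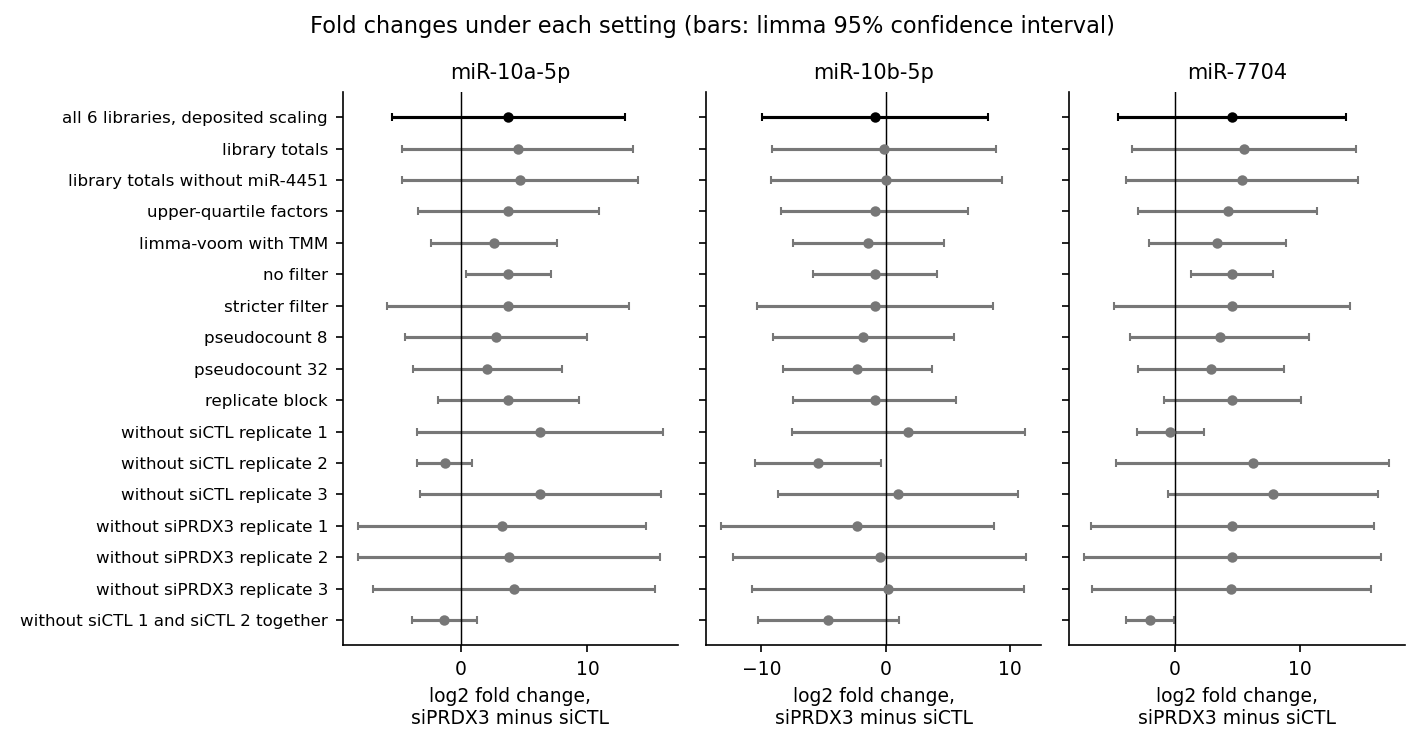
Fold change (x axis, log2, siPRDX3 minus siCTL) of the 3 tested members under each scaling, filter, pseudocount, test and choice of libraries (y axis), with limma 95% confidence intervals. The estimates cross 0 without siCTL 2 for miR-10a-5p and without siCTL 1 for miR-7704, and for miR-10b-5p they lie on both sides of 0. Libraries were left out on the deposited scale only.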

How the data were processed

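Small-RNA libraries of exosomes from 6 HCT116 samples, 3 labelled siCTL and 3 labelled siPRDX3 by their titles, were used. The authors deposited, per library, log2 values for 2588 mature miRNA entries. Tools named in the submitters' processing notes are Bowtie2 and bedtools 2.25.0. Not given in the sources used here are the build, annotation, filters, scaling, use of strand and handling of multiply mapped reads. Deposited log2 values were read as log2(x + 1), with x a scaled CPM. Summed over entries, x was 1005190, 1616280 and 994749 in siCTL 1, 2 and 3, against 686860, 684908 and 474714 in siPRDX3 1, 2 and 3. The deposited scale thus lowers siPRDX3 levels relative to siCTL, compared with shares of reads. In each library x lay on whole multiples of 1 step, the worth of a read: among values no larger than 100 reads, 100% were whole to within 0.1 read. Read counts derived in this way are approximate for abundant miRNAs, because the values carry few decimals.

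limma 3.58.1 (R 4.3.3, trend option on, no covariates) was fitted two-sided to the deposited log2 values of all 6 libraries. A miRNA entered where at least 3 libraries reached 113 CPM (10 reads in a library of median size) with a total of 15 reads or more. Adjustment of p-values was by Benjamini-Hochberg over the 80 tested, with a threshold of 0.05. The fit was also run on counts simulated around a common profile. That simulation lacked the loss of many miRNAs in single libraries seen here, so it cannot show how the fit performs on these data. Unit and test followed the plan for normalized values. Intervals of shares are exact 95% Clopper-Pearson intervals, and the upper limit for a count of 0 is set at 3 reads per library. PCR reads are not independent molecules, so both cover counting error only. The miR-10a-5p to miR-10b-5p ratio was compared by an exact permutation of the libraries, in 1 comparison, after adding 0.5 read. Entries named besides the members are the other HOX-cluster arms, related seeds, markers, the dominant miR-4451 and, per tested member, the 3 tested miRNAs with the smallest root mean square difference of centred log2 levels. The 2 entries as rich in G and C as miR-7704 were named after their values were seen. Members and lists were chosen with earlier results of these data known. Alternatives covered scaling, filter, pseudocount, limma-voom with a TMM computed here, the replicate number as a block, and libraries left out. No label says that a replicate number marks a shared culture or day, so the numbers were not taken to pair libraries. Deviations of same-numbered libraries had correlations of −0.238, 0.176 and 0.140, and those of differently numbered libraries ran from −0.360 to 0.329. Python 3.11.15 and scipy 1.17.1 were used for the rest.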

Additional observations from a re-analysis of the deposited data

How the results depend on the processing

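All 3 tested members stayed above an adjusted p of 0.05 in each of the 16 alternatives, with limma adjusted p-values of 0.275 to 0.810 for miR-10a-5p, 0.614 to 0.991 for miR-10b-5p and 0.138 to 0.870 for miR-7704. Their signs depended on single libraries. Libraries were left out on the deposited scale only. Leaving out 1 at a time gave log2 fold changes of −1.29 to 6.28 for miR-10a-5p, −5.44 to 1.83 for miR-10b-5p and −0.35 to 7.83 for miR-7704. For miR-10b-5p the sign also changed without siPRDX3 3 (0.16) and with library totals that leave out miR-4451 (0.054). Without siCTL 1 and siCTL 2 together miR-10a-5p stood at −1.31 and miR-7704 at −1.99; there 1 siCTL library remains, assumed to vary like the siPRDX3 libraries, so its p-values say nothing about stability. The median log2 fold change over all tested miRNAs moved from 1.72 to 2.57 under library totals and to 1.05 with upper-quartile factors, so fold changes are best read relative to it. The share above 0 was 63.7%, 73.8% under library totals and 21.2% without siCTL 1 and siCTL 2. The count of 0 miRNAs past the threshold became 1 by limma-voom with TMM (miR-1260b) and ran from 0 to 20 when 1 library was left out, the 20 without siCTL 3 (19 higher and 1 lower, with 0 members among them). With the replicate block it was 0. The block cannot move the log2 fold changes in this balanced design (3.75, −0.86 and 4.56), and the SE became 2.61, 3.08 and 2.56, with limma adjusted p of 0.524, 0.874 and 0.466. The log2 ratio of miR-10a-5p to miR-10b-5p differed by 4.02 to 5.50 in its 7 alternatives, with exact permutation p of 0.1 to 0.2, values too large by design to show stability. All but 1 of them include siCTL 2, whose ratio comes from the added reads alone. Without miR-4451 in the denominator the siPRDX3 share of miR-7704 was 5.73%. Apart from the alternatives' own construction, the cause of these changes was not tested. The sums of member shares without each library, and the thinning without miR-4451, were added after seeing the data. In the smallest library, 0 reads leave room for a share as high as 0.00747%.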
